A study of Mus musculus with 5 samples.

Results

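T and B lymphocyte genes were examined in mouse mammary gland as a reading of lymphoid content: 31 genes of the antigen receptors, their coreceptors and signalling proteins, chosen by name, of which 30 had a probe set of their own among the 19938 genes tested. Each of the 30 had 1 probe set. Lck, the T cell kinase that starts receptor signalling, has no value here. The genes were divided into 14 of the T lineage, 12 of the B lineage and 4 used by both. Total RNA of the gland was measured on 1 Affymetrix whole-transcript array per mouse in 3 rtTA/cyclin D1 mice and 2 rtTA control mice, all females of the FvB/N strain aged 8 weeks. The rtTA/cyclin D1 mice carry MMTV-rtTA, the reverse tetracycline transactivator under the mouse mammary tumour virus promoter, together with a cyclin D1 transgene, whereas the controls carry MMTV-rtTA alone. The MMTV promoter is active mainly in mammary epithelium and is also known to be active in some lymphoid cells. The treatment protocol gives 7 days of doxycycline, the drug that activates rtTA, but words it for a "KE" mutant of cyclin D1 and leaves unsaid if the control animals were given it.

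As background, a T cell recognises antigen through a receptor whose signal is carried by the CD3 and zeta chains. The kinases Lck and ZAP-70 and the adaptor LAT act with these chains. A B cell recognises antigen through surface immunoglobulin, whose signal is carried by CD79A and CD79B. The kinase BLK and the adaptor BLNK act in that pathway. The mammary fat pad of the mouse holds a lymph node, and scattered lymphocytes also lie along the ducts, so lymphocyte transcripts in whole-gland RNA can come from either place. The labels do not say whether the lymph node was removed before RNA extraction. In RNA of whole glands, fewer cells of a type and less RNA per cell cannot be told apart.

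RefSeq windows of 250 bases before to 50 bases after the gene start (GRCm38.p6) were on hand for 21 of the 31 genes. The ETS core AGGAAG, bound by a transcription factor family that includes SPI-B itself, was found on either strand in the windows of 13 of these 21 genes, against 38.4% of all genes with a window. The octamer ATGCAAAT, a motif of B cell promoters, was found in 1 of the 21, Blnk, against 1.97% of all genes, and no ETS match overlapped an octamer. Il7r, Cr2 and Cd3g are shown because among the genes of a single lineage that have a window their values varied most between mice, and Cd3d because it is the chromosomal neighbour of Cd3g and read differently. The windows lie at chr15:9529827-9530126 on the minus strand (Il7r), chr1:195176670-195176969 on the minus strand (Cr2), chr9:44980382-44980681 on the minus strand (Cd3g) and chr9:44981536-44981835 on the plus strand (Cd3d), each 5′ to 3′ in the direction of the gene, with ETS core matches on either strand in capitals.
Il7r: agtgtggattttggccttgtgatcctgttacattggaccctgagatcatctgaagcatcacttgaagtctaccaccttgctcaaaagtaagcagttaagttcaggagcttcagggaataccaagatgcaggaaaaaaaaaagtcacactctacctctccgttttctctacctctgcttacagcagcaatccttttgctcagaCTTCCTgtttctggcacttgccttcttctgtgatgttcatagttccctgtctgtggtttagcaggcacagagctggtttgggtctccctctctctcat
Cr2: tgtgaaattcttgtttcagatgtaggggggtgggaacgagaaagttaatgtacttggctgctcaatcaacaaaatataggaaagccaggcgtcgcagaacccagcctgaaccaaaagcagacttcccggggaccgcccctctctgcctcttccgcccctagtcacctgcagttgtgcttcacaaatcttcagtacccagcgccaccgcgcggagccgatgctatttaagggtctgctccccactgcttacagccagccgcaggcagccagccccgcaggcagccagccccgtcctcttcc
Cd3g: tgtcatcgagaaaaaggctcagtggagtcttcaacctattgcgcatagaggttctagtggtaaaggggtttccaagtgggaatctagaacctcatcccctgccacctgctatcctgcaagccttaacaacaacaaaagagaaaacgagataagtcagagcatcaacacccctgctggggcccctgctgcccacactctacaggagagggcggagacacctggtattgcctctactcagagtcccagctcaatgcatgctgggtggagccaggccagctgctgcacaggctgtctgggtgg
Cd3d: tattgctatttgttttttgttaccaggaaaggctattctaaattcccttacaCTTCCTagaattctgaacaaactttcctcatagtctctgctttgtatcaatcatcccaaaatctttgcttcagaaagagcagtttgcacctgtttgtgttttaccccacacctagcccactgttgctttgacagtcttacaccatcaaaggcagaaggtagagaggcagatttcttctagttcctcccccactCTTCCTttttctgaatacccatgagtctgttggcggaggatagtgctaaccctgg
Il7r held 1 ETS core match and Cd3d 2, whereas Cr2 and Cd3g held none.

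Of the 30 lymphocyte genes 19 lay above dim signal on at least 1 array and 11 on none. Of all genes 45.6% lay above it on none. Values are log2 expression as deposited. No call of presence was used, so the 95th percentile of 1015 olfactory receptor genes on the same array served as a rough upper edge of dim signal. It stood at 2.79, 2.76 and 3.09 in the rtTA/cyclin D1 replicates 1, 2 and 3, against 3.46 and 3.27 in the rtTA control replicates 1 and 2. Of the 30 genes 9, 18 and 3 lay above it in the rtTA/cyclin D1 replicates, against 5 and 10 in the controls. The share of all genes above it was 46.9%, 48.1% and 37.9%, against 17.8% and 29.0%. The share of the lymphocyte genes was 60.0% on rtTA/cyclin D1 replicate 2 and 33.3% on control replicate 2, so it exceeded the share of all genes on these arrays, and it lay below that share on the other 3. Only Ptprc and Ccr7, both used by T and B cells, were above it on all 5 arrays, and the 11 above it on none were Cd3d, Cd6, Zap70, Coro1a, Cd79a, Fcer2a, Fcmr, Cxcr5, Spib, Blk and Blnk. Their tests and order between groups are given only as fitted to dim signal, and are not read as differences in expression. Cd247, Cd5, Cd28, Cd27, Cd22 and Cr2 lay above the edge in rtTA/cyclin D1 replicate 2 alone. On the other arrays they too were dim, so their group differences are not read either.

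**Figure D1:**
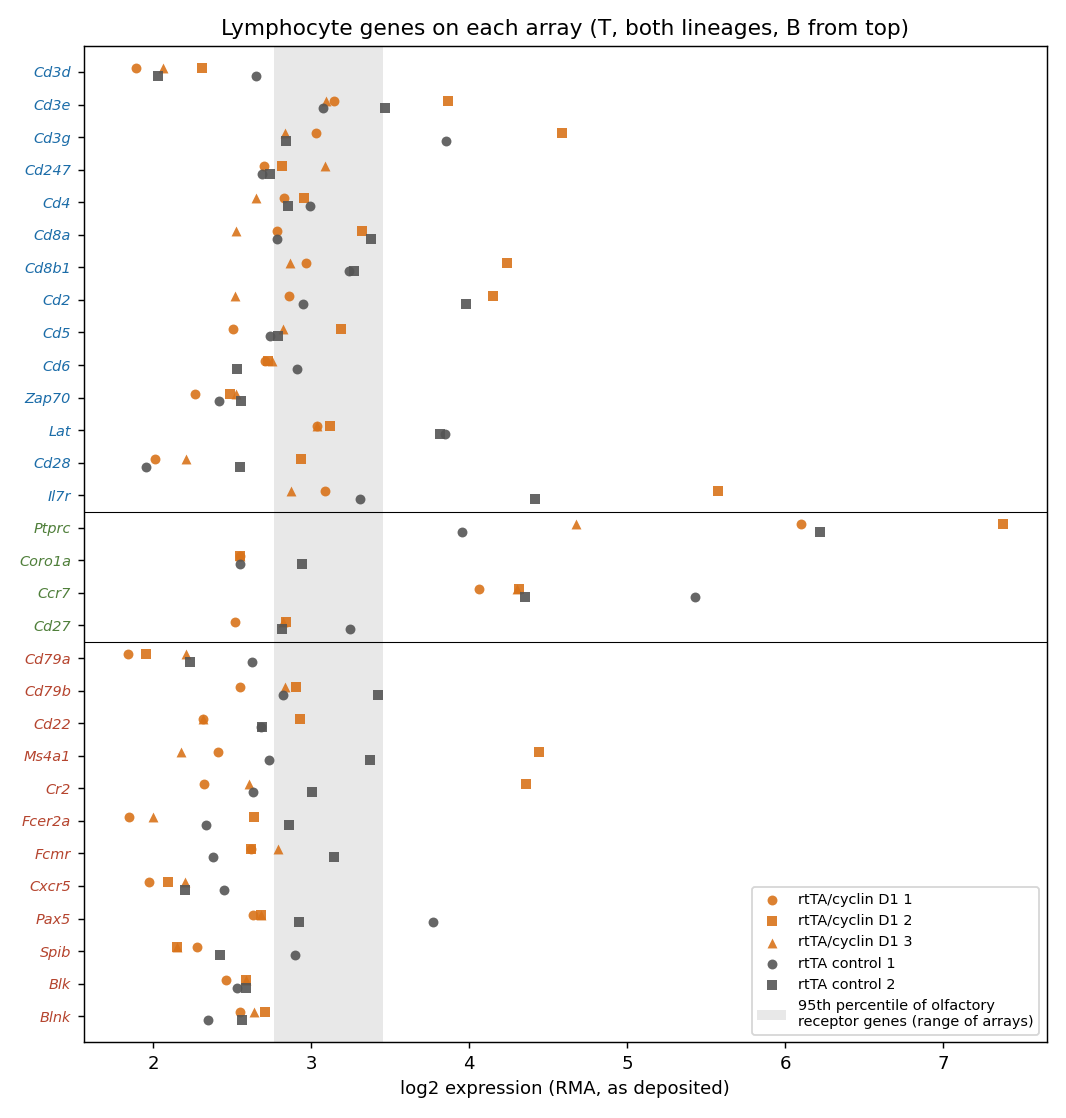
Log2 expression (x axis) of the 30 lymphocyte genes (rows, T lineage at the top, both lineages in the middle, B lineage at the bottom) on each of the 3 rtTA/cyclin D1 arrays (orange) and 2 rtTA control arrays (grey), marker shape giving the replicate number. The shaded band spans the 95th percentiles of olfactory receptor genes on the 5 arrays, 2.76 to 3.46; Ptprc and Ccr7 lie above it on every array, and the orange square of rtTA/cyclin D1 replicate 2 stands apart for Il7r, Ms4a1, Cr2 and Cd3g.

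Between the groups, 1 of the 30 lymphocyte genes passed the test, and it was lower: Lat. The test was limma over all 19938 genes with Benjamini-Hochberg adjustment and a threshold of 0.05, by which 6.06% of all genes passed in either direction, 5.38% higher and 0.687% lower. Of the 30 genes 0 were higher, and 3 had an unadjusted limma p under 0.05, namely Lat, Pax5 and Spib, against 26.3% of all genes. The median log2 difference, rtTA/cyclin D1 minus control, was -0.0047 over the T lineage, -0.20 over the B lineage and -0.25 over the genes of both, against -0.053 over all genes. Without rtTA/cyclin D1 replicate 2 these medians were -0.26, -0.39 and -0.28, against -0.031 over all genes, and 0 genes passed of the 30 or of all genes. After the 5 arrays were quantile-normalized again (renormalized), the medians were -0.085, -0.10 and -0.34, against -0.021, and 0 of the 30 passed. On that scale 0.361% of all genes passed, 0.256% higher and 0.105% lower. The lineage medians include the genes whose own differences are not read because of dim signal. Most B lineage genes were dim: 0, 4 and 0 of 12 lay above the edge in rtTA/cyclin D1 replicates 1, 2 and 3, against 1 and 2 in the controls. The B lineage median is therefore not read as a difference in expression.

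Lat, the membrane adaptor that ZAP-70 phosphorylates, read 3.04, 3.12 and 3.04 in the rtTA/cyclin D1 glands, against 3.85 and 3.81 in the rtTA control glands. Both controls lay above all rtTA/cyclin D1 arrays. The log2 difference was -0.77 (SE 0.12, limma adjusted p = 0.0348). After renormalization it was -1.32 with an adjusted p = 0.0630, so the direction held and the call did not. The call was also lost without rtTA/cyclin D1 replicate 1, 2 or 3 (limma adjusted p = 0.151, 0.119 and 0.0912). Without replicate 1 or 2 no gene of all tested passed, so that loss is not particular to Lat. The log2 difference was -0.75 without control replicate 1 and -0.78 without control replicate 2, each of which leaves 1 control mouse. The rtTA/cyclin D1 values lie near the edge of dim signal on those arrays, and replicates 1 and 3 have the same value. That edge was itself higher in the controls, at 3.46 and 3.27, against 2.79, 2.76 and 3.09 in rtTA/cyclin D1 glands. After renormalization it stood at 3.82 and 3.30, against 2.84, 2.82 and 3.05. How much of the Lat difference follows the edge, on either scale, was not tested. Equal values on 2 or more arrays occurred in 9 of the 30 genes, against 19.9% of all genes.

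The CD3 chains and zeta, the signalling parts of the T cell receptor, did not pass the test in either direction. Cd3e read 3.15, 3.86 and 3.10 in rtTA/cyclin D1 glands, against 3.08 and 3.47 in controls. The difference of 0.095 (limma SE 0.29, adjusted p = 0.853) took the opposite sign, -0.077, after renormalization. Cd3g read 3.03, 4.59 and 2.83, against 3.85 and 2.84 in controls, a difference of 0.14 (SE 0.62, adjusted p = 0.902) and of -0.40 after renormalization. For both genes rtTA/cyclin D1 replicate 2 was the highest of the 5 arrays, while replicates 1 and 3 were within the range of the controls or below it for Cd3g. Cd3d, which lies beside Cd3g with no other protein-coding gene between, read 1.89, 2.31 and 2.06, against 2.65 and 2.03 in controls, below the edge of dim signal on all arrays. Cd247, the zeta chain, read 2.70, 2.82 and 3.09, against 2.69 and 2.74 (adjusted p = 0.578).

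Among the coreceptors, Cd8b1, the beta chain of the coreceptor that binds MHC class I on cytotoxic T cells, read 2.97, 4.24 and 2.86 in rtTA/cyclin D1 glands, against 3.24 and 3.27 in controls (log2 difference 0.10, SE 0.44, limma adjusted p = 0.899, and -0.11 after renormalization). Its neighbouring gene and partner chain, Cd8a, read 2.78, 3.32 and 2.53, against 2.78 and 3.38 in controls (adjusted p = 0.693). Cd4, the coreceptor for MHC class II, read 2.83, 2.96 and 2.65 against 2.99 and 2.86 (limma adjusted p = 0.662). It lay above the edge of dim signal in rtTA/cyclin D1 replicates 1 and 2 alone and was dim in both controls. Its group difference is therefore not read. The adhesion receptor gene Cd2 read 2.86, 4.15 and 2.52, against 2.95 and 3.98, a difference of -0.29 (SE 0.57, adjusted p = 0.772). Rather than a group, Cd2 set the 2 arrays numbered replicate 2 above the other 3. Cd5, an inhibitory receptor of T cells, read 2.50, 3.19 and 2.82, against 2.74 and 2.79, and its neighbour Cd6 stayed between 2.53 and 2.91 on all arrays.

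Il7r, the receptor chain through which interleukin-7 keeps naive T cells alive, had the widest spread of the T lineage genes. It read 3.09, 5.58 and 2.87 in rtTA/cyclin D1 glands, against 3.31 and 4.42 in controls. The SD within the rtTA/cyclin D1 group was 1.503 (n = 3), while the difference between the groups was -0.018 (SE 0.90, limma adjusted p = 0.992), or -0.88 without rtTA/cyclin D1 replicate 2 (adjusted p = 0.369). Cd28, the costimulatory receptor, read 2.01, 2.94 and 2.21, against 1.95 and 2.55 (adjusted p = 0.822), and as for Il7r the array numbered replicate 2 was the highest of each group. Zap70, the kinase that docks on the phosphorylated receptor, read 2.26, 2.49 and 2.53, against 2.42 and 2.56.

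Of the genes used by both lineages, Ptprc, which encodes the phosphatase CD45 of all white blood cells, read 6.10, 7.38 and 4.68 in rtTA/cyclin D1 glands, against 3.96 and 6.22 in rtTA control glands. The groups overlapped, with control replicate 2 above rtTA/cyclin D1 replicates 1 and 3. The Ptprc difference was 0.96 (limma SE 0.99, adjusted p = 0.557), 0.30 without rtTA/cyclin D1 replicate 2, and -0.34 after renormalization. Ccr7, the receptor that guides lymphocytes and dendritic cells into lymph nodes, read 4.06, 4.32 and 4.30, against 5.43 and 4.36. Both controls stood above the rtTA/cyclin D1 arrays, control replicate 2 by a small margin, and the difference of -0.66 (SE 0.33, adjusted p = 0.270) did not pass. It was -1.93 after renormalization (limma adjusted p = 0.190). With 1 control mouse left it was -0.13 without control replicate 1 and -1.20 without control replicate 2, so its size rested on which control array was kept. Cd27, a costimulatory receptor of the tumour necrosis factor family, read 2.52, 2.84 and 2.82, against 3.25 and 2.82 (adjusted p = 0.373). Coro1a, an actin regulator of white blood cells, read 2.55 on 4 arrays and 2.94 in control replicate 2.

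Of the B cell receptor chains, Cd79a was dim on all arrays and Cd79b on 3 of 5. Cd79a read 1.84, 1.95 and 2.21 in rtTA/cyclin D1 glands, which is no higher than the average olfactory receptor gene on the same arrays, against 2.62 and 2.23 in controls. Cd79b read 2.55, 2.90 and 2.84, against 2.82 and 3.42, differing by -0.36 (SE 0.23, limma adjusted p = 0.366). Among the B cell surface receptors, Ms4a1, which encodes the B cell membrane protein CD20, read 2.41, 4.44 and 2.17, against 2.73 and 3.37, and differed by -0.043 (SE 0.73, adjusted p = 0.976), or by -0.76 without rtTA/cyclin D1 replicate 2 (adjusted p = 0.282). Cr2, the complement receptor of mature B cells and follicular dendritic cells, read 2.32, 4.36 and 2.61, against 2.63 and 3.01, a difference of 0.28 (SE 0.63, adjusted p = 0.800) that was -0.35 without that array. Both genes were below the edge of dim signal everywhere but in rtTA/cyclin D1 replicate 2 and, for Ms4a1, control replicate 2. Cd22, an inhibitory lectin of B cells, read 2.32, 2.93 and 2.32, against 2.68 and 2.69. The remaining surface receptors ranged from 1.85 to 2.86 for the IgE receptor gene Fcer2a, 2.38 to 3.15 for the IgM receptor gene Fcmr and 1.98 to 2.45 for Cxcr5, the receptor that draws B cells into follicles.

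Pax5, the transcription factor that fixes B cell identity, read 2.63, 2.68 and 2.68 in rtTA/cyclin D1 glands, against 3.77 and 2.92 in controls. Its difference of -0.68 (SE 0.27, limma adjusted p = 0.185) did not pass. It was -0.99 after renormalization (limma adjusted p = 0.333), -0.25 without control replicate 1 and -1.11 without control replicate 2. Each of these omissions leaves 1 control mouse. Among the 5 arrays Pax5 exceeded the edge of dim signal in control replicate 1 alone. Spib, an ETS factor of B cells, read 2.28, 2.15 and 2.15, against 2.90 and 2.42 (adjusted p = 0.186), all below the edge of dim signal. The kinase gene Blk stayed between 2.46 and 2.59, and the adaptor gene Blnk between 2.35 and 2.71. In all, the rtTA/cyclin D1 values of Lat, Ccr7, Cd79a, Pax5 and Spib lay below both controls and those of 0 of the 30 lay above both, against 22.6% and 22.4% of all genes. The count of 5 of 30 is thus no larger than the share over all genes.

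**Figure D2:**
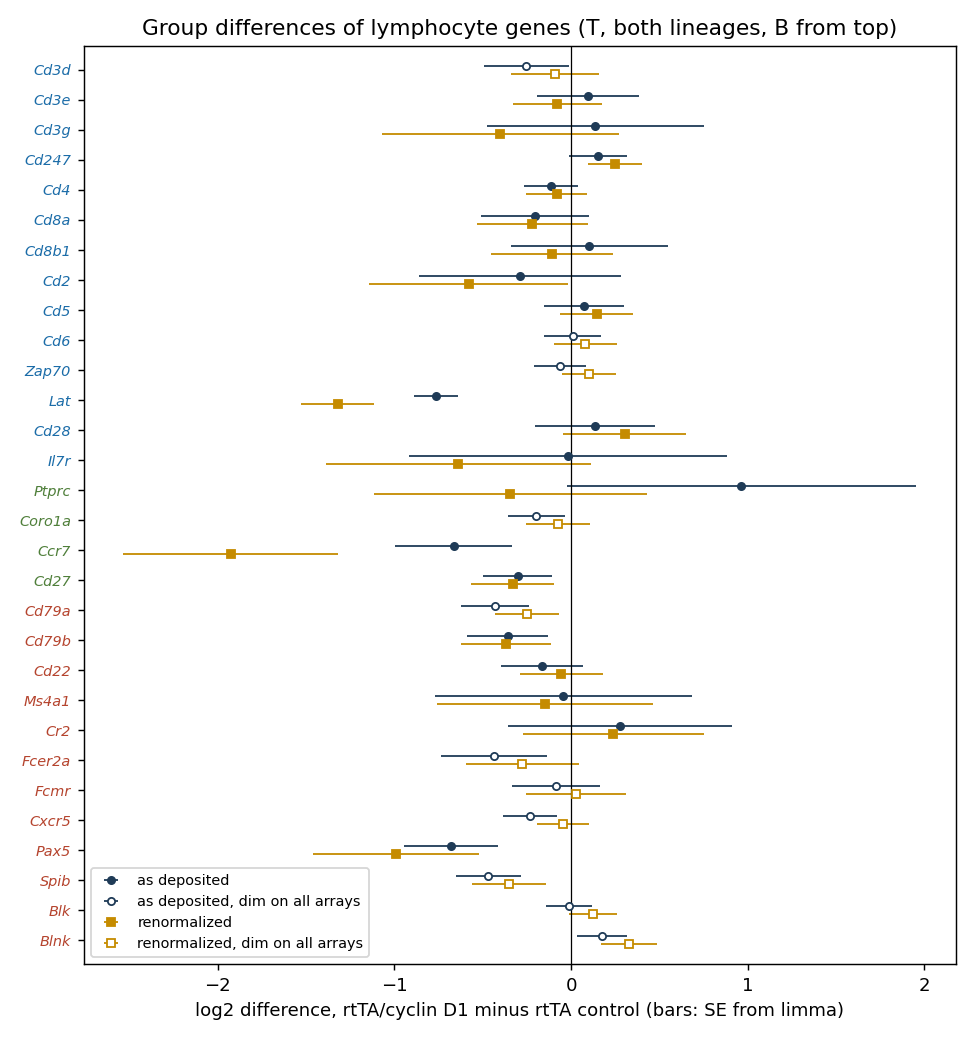
Log2 difference, rtTA/cyclin D1 minus rtTA control (x axis, n = 3 and n = 2), of the 30 lymphocyte genes (rows, ordered as T lineage, both lineages, B lineage from the top), with bars for the SE from limma, as deposited (circles) and renormalized (squares). Open markers are the 11 genes at or below the edge of dim signal on all arrays, whose differences are drawn but not interpreted. Filled markers include Cd247, Cd5, Cd28, Cd27, Cd22 and Cr2, above the edge in rtTA/cyclin D1 replicate 2 alone and likewise not interpreted. Lat, at -0.77 as deposited, is the gene that passed, and Ptprc has opposite signs on the 2 scales.

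Within the rtTA/cyclin D1 group, replicate 2 stood above the other 2 arrays for many of the lymphocyte genes. This pattern was noticed in the values and concerns 1 mouse, so it is described without a test. Replicate 2 had the highest of the 3 rtTA/cyclin D1 values in 20 of the 30 genes (66.7%), against 24.6% of all genes. By lineage these were 11 of 14 T lineage genes, 6 of 12 B lineage genes and 3 of 4 of both. After renormalization the count was 25 of 30, against 32.7% of all genes. In 7 genes (23.3%, against 1.11% of all genes) replicate 2 exceeded the higher of the other 2 arrays by more than 1 on the log2 scale. They were Il7r by 2.49, Ms4a1 by 2.03, Cr2 by 1.75, Cd3g by 1.56, Cd2 by 1.29 and Cd8b1 and Ptprc by 1.27 each, while the next, Cd28, led by 0.73. Ranked by this lead among the 19938 genes, Il7r was number 8, Ms4a1 18, Cr2 34 and Cd3g 50, and the 7 genes all stood within rank 99, or within rank 101 after renormalization. The mean of the T lineage genes was 2.70, 3.45 and 2.70 in the rtTA/cyclin D1 replicates, against 2.96 and 3.09 in the controls. The mean of the B lineage genes was 2.32, 2.84 and 2.43, against 2.68 and 2.79. Above the edge of dim signal lay 7, 11 and 1 of the 14 T lineage genes, against 2 and 6 in the controls. For the 12 B lineage genes the counts were 0, 4 and 0, against 1 and 2. The B lineage mean is thus mostly one of dim signal and is not read as B cell content. Of the 30 genes 12 had their highest value of all 5 arrays in rtTA/cyclin D1 replicate 2, against 18.2% of all genes. Control replicate 1 was the highest for 10, against 28.7% of all genes. After renormalization these counts were 10 and 11, against 16.6% and 32.5% of all genes. Control replicate 2 was then the highest for 8, against 23.9%.

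**Figure D3:**
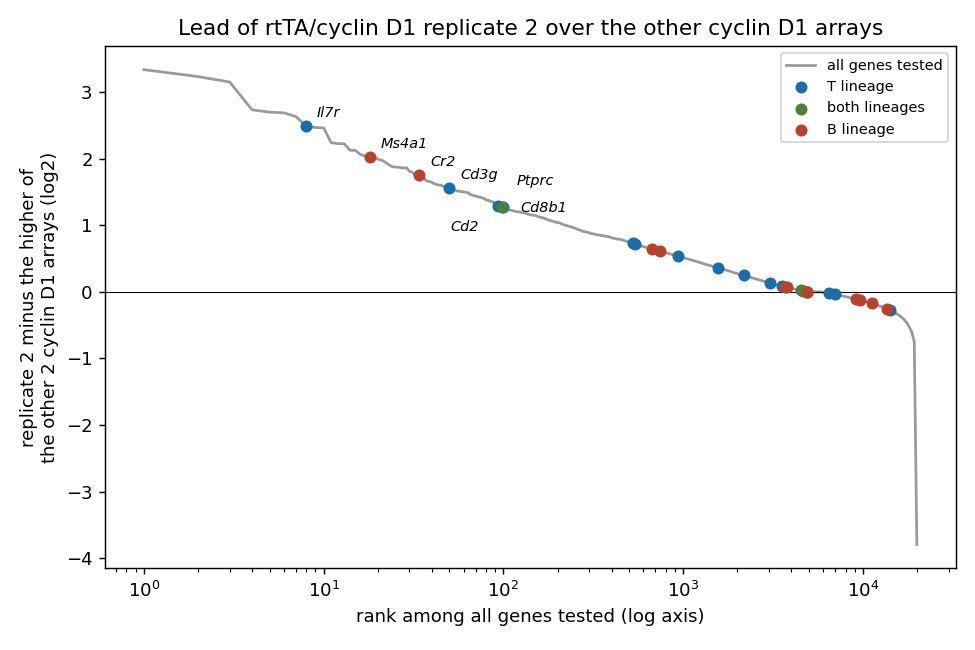
Lead of rtTA/cyclin D1 replicate 2 over the higher of the other 2 rtTA/cyclin D1 arrays (y axis, log2) against the rank of that lead among all 19938 genes (x axis, log scale), with all genes as the grey line and the lymphocyte genes as points coloured by lineage. The 7 labelled genes lead by more than 1 and rank from 8 (Il7r) to 99; the other 23 lead by 0.73 or less.

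Other genes of the same pathways, were taken from lists that hold none of the 31. Of 27 measured T cell receptor pathway genes 0 passed in either direction by limma (2 had an unadjusted p under 0.05), with a median log2 difference of 0.040. The smallest adjusted p-values were those of Sh2d1a, an adaptor of SLAM receptors (2.11, 2.19 and 2.10 in rtTA/cyclin D1 glands against 3.11 and 2.66 in controls, limma adjusted p = 0.0701), and Cd40lg, the helper signal to B cells (1.78, 2.14 and 1.64 against 2.52 and 2.45, adjusted p = 0.113), both dim on all arrays. In 16 of the 27 (59.3%) rtTA/cyclin D1 replicate 2 was the highest of its group, and in 4, Prkcq, Ptpn22, Themis and Cd96, by more than 1. Prkcq, a protein kinase C of T cells, read 2.57, 4.48 and 2.53, against 2.94 and 2.63 in controls. Of 22 measured B cell receptor pathway genes 1 rose and 0 fell, with a median of 0.0009. The gene that rose was Cd81, a tetraspanin that B cells and many other cells make, at 6.59, 7.46 and 6.20 against 4.69 and 4.81 (log2 difference 2.0, limma adjusted p = 0.0464, and 0.33 with an adjusted p = 0.609 after renormalization). Bank1, a B cell scaffold protein, read 2.52, 4.99 and 2.24, against 2.77 and 3.13, and its lead of 2.47 in replicate 2 ranked number 9 of all genes.

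Among genes of antibody-secreting cells and of antigen presentation, replicate 2 was the highest rtTA/cyclin D1 array in 3 of 11 (27.3%) and 3 of 8 (37.5%). The share over all genes was 24.6%. Jchain, the joining chain of secreted IgA and IgM, read 2.66, 2.12 and 2.80 in rtTA/cyclin D1 glands, against 2.49 and 2.60 in controls, with replicate 2 the lowest array. Of 11 immunoglobulin and plasma cell genes 0 passed by limma (2 had an unadjusted p under 0.05). The smallest adjusted p-values were those of Xbp1, a factor of secretory cells in general (log2 difference 1.51, limma adjusted p = 0.0564, and 0.32 after renormalization), and Igha (-0.48, adjusted p = 0.147). Of 8 MHC class II pathway genes 0 passed and 0 had an unadjusted p under 0.05; the leading members were H2-Ob (0.17, adjusted p = 0.457) and H2-Eb1 (-0.33, adjusted p = 0.312).

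Genes of lymph node stroma and homing gave no common direction. Of 16 measured, 1 rose and 0 fell, with a median of 0.0097. The gene that rose was Glycam1, a ligand of L-selectin in lymph node venules that is also a milk protein of mammary epithelium, at 11.0, 12.2 and 11.7 in rtTA/cyclin D1 glands against 9.46 and 9.71 in controls (log2 difference 2.05, SE 0.37, limma adjusted p = 0.0405, and 0.90 with an adjusted p = 0.327 after renormalization). Cxcl13, the follicle chemokine that binds CXCR5, read 3.65, 7.02 and 4.56, against 7.47 and 7.82, a difference of -2.57 (SE 0.98, adjusted p = 0.177) that did not pass. It was -3.79 after renormalization (adjusted p = 0.0846) and -3.54 without rtTA/cyclin D1 replicate 2 (adjusted p = 0.0639). Both controls and rtTA/cyclin D1 replicate 2 were high for Cxcl13, and the other 2 arrays were low. The chemokine genes of the Ccl21 family, which draw CCR7-bearing cells into lymph nodes, share 4 probe sets with equal values. They read 3.89, 4.41 and 4.14, against 5.25 and 4.70, and were not tested because each probe set matches 7 gene symbols. Ccl19, the other ligand of CCR7, read 2.80, 4.41 and 3.45, against 2.76 and 3.94.

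Of 10 luminal epithelial genes 3 rose in the rtTA/cyclin D1 glands and 0 fell, Epcam (log2 difference 2.49, limma adjusted p = 0.0184), Elf5 (3.43, adjusted p = 0.0192) and Cdh1 (1.37, adjusted p = 0.0228), with a list median of 1.14. Of 7 basal epithelial genes 1 rose, the smooth muscle actin gene Acta2 (2.48, adjusted p = 0.0349). After renormalization 0 genes of either list passed. The part of this epithelial signal in the lymphocyte values was not tested. Replicate 2 was the highest rtTA/cyclin D1 array for 24.6% of all genes. It was so for 8 of 16 lymph node homing and stroma genes, 2 of them by more than 1, and for 10 of 22 other B cell receptor pathway genes. It was the highest for 5 of 10 luminal and 3 of 7 basal genes, 1 of 13 macrophage genes, 2 of 10 NK and cytotoxic genes, 2 of 7 dendritic cell genes, 3 of 8 endothelial genes, 1 of 6 mast cell genes, and 0 of 7 each for fibroblast, adipocyte and neutrophil genes. None of the macrophage, NK, dendritic, neutrophil, mast cell, adipocyte, fibroblast and endothelial genes, nor the 2 red blood cell genes measured, Slc4a1 and Alas2, passed by limma, while 3 macrophage, 3 NK and 1 dendritic cell gene and 0 of the others had an unadjusted p under 0.05. Of these lists the lowest adjusted p-values were those of Klrk1, an activating receptor of NK cells that was dim on all arrays (limma adjusted p = 0.0793), and the macrophage mannose receptor gene Mrc1 (1.11, adjusted p = 0.0798). Next were Eomes, a transcription factor of NK cells that was likewise dim (limma adjusted p = 0.111), and Fcgr1, an antibody receptor of macrophages (adjusted p = 0.127). In the other lists the smallest limma adjusted p-values were 0.158 (Xcr1) and 0.383 (Itgax) for dendritic cells, 0.336 (Mmp8) and 0.424 (Ly6g) for neutrophils, and 0.243 (Tpsb2) and 0.358 (Ms4a2) for mast cells. They were 0.269 (Pparg) and 0.627 (Cidec) for adipocytes, 0.321 (Col3a1) and 0.328 (Dcn) for fibroblasts, and 0.245 (Emcn) and 0.282 (Kdr) for endothelium. The dendritic cell, neutrophil and mast cell genes named here were below the edge of dim signal on all arrays.

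**Figure D4:**
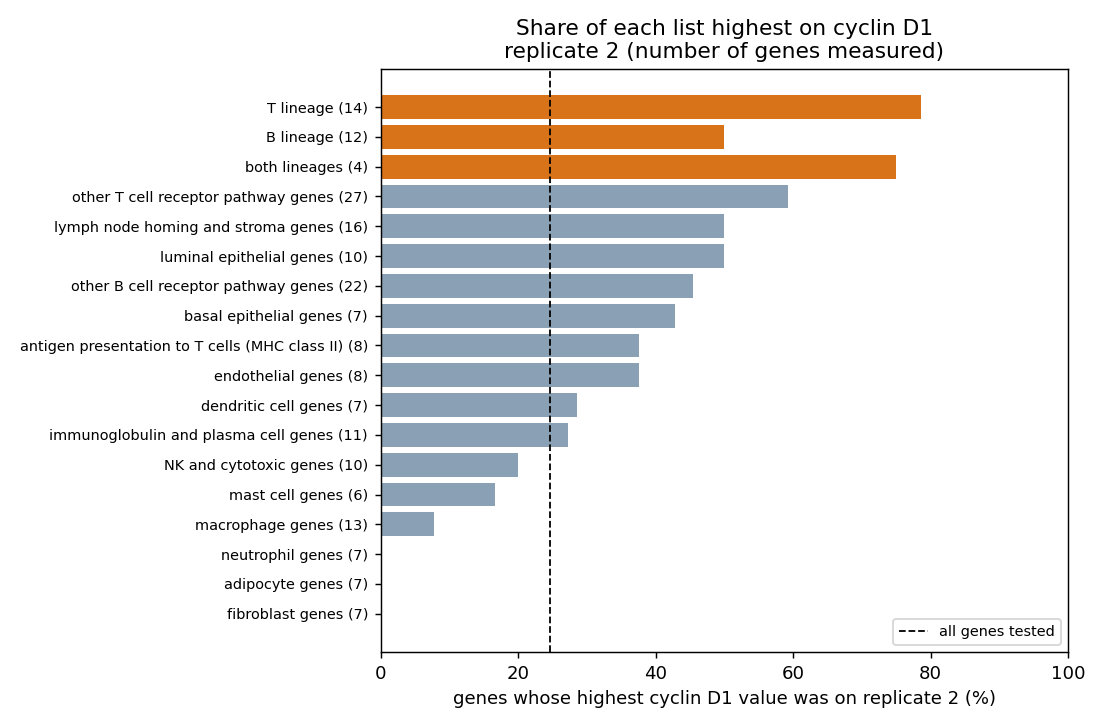
Share of genes in each list whose highest rtTA/cyclin D1 value was on replicate 2 (x axis, percent), for the lymphocyte genes by lineage (orange) and other lists (blue-grey), with the number of genes measured in brackets and the share over all genes, 24.6%, as the dashed line. The T lineage stands at 78.6%, other T cell receptor pathway genes at 59.3% and macrophage genes at 7.69%.

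The arrays also differed in spread. The SD across all genes was 1.32, 1.38 and 1.20 in the rtTA/cyclin D1 arrays, against 0.735 and 0.926 in the rtTA control arrays, with medians of 2.72 to 2.83 over the 5 arrays. Of the 30 lymphocyte genes 7 changed the sign of their difference after renormalization, and 26 had a difference smaller than 0.5 in size as deposited. The SD among the 3 rtTA/cyclin D1 arrays exceeded the size of the group difference in 18 of the 30.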

How the data were processed

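Total RNA of mammary gland from 3 rtTA/cyclin D1 mice and 2 rtTA control mice was read on 1 array each; groups and replicate numbers come from the sample titles, and the series' design text calls the mice separate animals. The deposited values are log2 expression per probe set, which the authors made by RMA in Affymetrix Expression Console 1.1 (per the submitters' processing notes); its background setting and the genome build behind the probe sets are not given in the sources consulted, and base 2 was inferred from the range, 0.830 to 12.9. No detection calls or raw intensities were used. Precision is limited by having 5 arrays.

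Of 35556 probe sets 21789 had 1 gene symbol, 1621 several and 12146 none; the probe set with the highest mean was kept per symbol, giving 19938 genes. The comparison used lmFit and eBayes of limma 3.58.1 (R 4.3.3, with 3 residual and 2.39 prior degrees of freedom), two-sided, with Benjamini-Hochberg adjustment over all genes. Adjusted p-values come from that fit unless another setting is named, such as renormalization, an omitted array or the replicate block. Those come from a separate limma fit of that setting. The script was tested on simulated data. The members and lists were chosen with earlier results of these data known. Named are all 31 genes; of each of 16 other lists the members that passed (at most 4 with the smallest p) or, where none passed, the 2 with the smallest p; and Jchain, Glycam1 and the Ccl21 family as defining genes. Prkcq, Ptpn22, Themis, Cd96, Bank1, Cxcl13, Ccl19 and the genes under other observations were chosen after their values were seen. Alternatives were a renewed quantile normalization, median centring, an intensity trend or robust prior, leaving out dim genes, averaging a gene's probe sets, testing every probe set, weights per array, blocking on replicate number, omitting each array with and without renormalization, and other percentiles for dim signal.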

Additional observations from a re-analysis of the deposited data

How the results depend on the processing

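Of the lymphocyte genes 1 passed as analysed, and also with median centring, a robust prior, a filter on dim genes (27 genes left), the mean of probe sets or every probe set. The count was 0 after renormalization, with an intensity trend, array weights or the replicate block, and ranged from 0 to 6 when each array was left out, with or without renormalization; the 6 came without control replicate 2 on renormalized values, and 4 passed without it as deposited. The cause was not tested. Over all genes 1072 were higher and 137 lower as analysed, against 51 and 21 after renormalization, 622 higher with an intensity trend, 263 and 4 with array weights and 10 lower with the replicate block. With an array left out they ranged from 0 to 2221 higher and 0 to 3154 lower. The count was 0 in each direction without control replicate 1 (4973 genes at an unadjusted limma p under 0.05) or rtTA/cyclin D1 replicate 1 (3568) or 2 (3491). Same-numbered arrays share only a number: the correlation of their deviations from the group means was -0.026 for replicate 1 and 0.126 for replicate 2, and the block, which leaves rtTA/cyclin D1 replicate 3 without a partner, gave Lat an adjusted p = 0.132.

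The median of the genes of both lineages, -0.25, ranged from -0.65 to -0.15 with an array left out. Log2 differences with the opposite sign after renormalization were those of Cd3e (-0.077), Cd3g (-0.40), Cd8b1 (-0.11), Ptprc (-0.34), Zap70 (0.10), Fcmr (0.027) and Blk (0.12). With median centring they were those of Zap70 (0.0080), Il7r (0.052), Ms4a1 (0.027) and Blk (0.059), with array weights that of Cd5 (-0.0050), and with the replicate block those of Cd2 (0.043), Cd6 (-0.0020), Il7r (0.47) and Ms4a1 (0.38). With each array left out, with or without renormalization, differences that changed sign ranged from -0.56 to 0.23 for Cd3d, -0.33 to 0.29 for Cd3e, -1.45 to 0.65 for Cd3g, -0.19 to 0.022 for Cd4, -0.62 to 0.14 for Cd8a, -0.41 to 0.35 for Cd8b1, -1.42 to 0.23 for Cd2, -0.10 to 0.27 for Cd5, -0.18 to 0.32 for Cd6, -0.13 to 0.21 for Zap70, -0.16 to 0.66 for Cd28, -1.52 to 0.54 for Il7r, -1.38 to 2.10 for Ptprc, -0.39 to 0.16 for Coro1a, -0.37 to 0.071 for Cd22, -0.76 to 0.38 for Ms4a1, -0.35 to 0.67 for Cr2, -0.70 to 0.040 for Fcer2a, -0.47 to 0.49 for Fcmr, -0.36 to 0.065 for Cxcr5 and -0.042 to 0.18 for Blk. Without control replicate 2, which leaves 1 control mouse, the log2 difference was -1.20 for Ccr7 and -1.11 for Pax5. Values here for Cd3d, Cd6, Zap70, Coro1a, Fcer2a, Fcmr, Cxcr5 and Blk are fitted to dim signal. With the mean of the olfactory receptor genes as the edge of dim signal, 25, 29 and 23 lymphocyte genes lay above it in the rtTA/cyclin D1 replicates, against 24 and 27 in the controls; with their 90th percentile 14, 25 and 9, against 8 and 11.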

Other observations

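Among the 25 genes with the widest lead of rtTA/cyclin D1 replicate 2 over the other rtTA/cyclin D1 arrays, a set chosen after the values were seen, lymphocyte genes stood beside genes of other kinds. Pip, a secreted protein of glandular epithelium, led with 5.59 in replicate 2, 1.95 and 2.25 in replicates 1 and 3, and 2.31 and 2.21 in controls. The milk genes Wap (9.52, 11.6 and 8.95 in the rtTA/cyclin D1 replicates 1 to 3, against 4.71 and 6.46 in controls) and Olah, a thioesterase of milk fat synthesis (4.90, 8.14 and 4.24, against 2.71 and 2.65), were in the set. So were the interferon-induced genes Ifit1 (3.30, 6.03 and 3.28, against 2.99 and 2.92), Mx2 (2.43, 4.46 and 2.0, against 3.52 and 2.0) and Ddx58 (4.54, 6.51 and 4.57, against 3.68 and 4.38). Of white blood cell genes outside the 31, Cd52 read 3.69, 5.82 and 3.62, against 3.23 and 4.76, and Stap1, a signalling adaptor of blood cells, 2.32, 4.55 and 2.03, against 2.48 and 2.92. The lead of replicate 2 in these genes rests on 1 mouse and was not tested.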
